A study of Mus musculus with 18 samples.

Results

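The baseline transcriptome of the mouse left ventricle was described from the 6 control libraries of a series of 18. They were chosen by the treatment field of the labels alone, with no measured value used. The animals were male C57BL/6J wild type mice, 12 weeks old, with a saline-filled osmotic pump and daily intraperitoneal saline for 21 days. The other 12 libraries come from mice given isoproterenol at 30 mg/kg/day, with or without minocycline at 50 mg/kg, and enter no comparison here. The libraries are called Control 1 to Control 6 in the order of deposit, which pairs nothing. The protocol speaks of pooled RNA, so whether a library stands for 1 animal is uncertain, and p-values measure the spread between libraries only.

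The left ventricle pumps blood into the aorta without pause, and its working cells, the cardiomyocytes, are packed with contractile filaments and mitochondria. A small circular genome inside each mitochondrion encodes core subunits of the respiratory chain and of the ATP synthase, while the remaining subunits are encoded in the nucleus. Many contractile and metabolic proteins exist in several isoforms from separate genes, one typical of the adult ventricle and others typical of the atrium, of skeletal muscle or of the fetal heart. Tissue pieces also hold endothelial cells, fibroblasts, pericytes, smooth muscle, immune cells and blood.

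Totals were 17448573, 20532128, 21296397, 22688664, 22204143 and 17079823 counts in Control 1 to Control 6. A count was found for 16011 to 16572 genes per library, for 14446 genes in all 6 libraries and for 18746 of the 48709 listed genes in at least 1. Log2 CPM (CPM is counts relative to library size, scaled by TMM) correlated between libraries over genes with Pearson's r from 0.982 to 0.990, a description over genes that are not replicates. Every pair of libraries differed beyond counting noise, with a chi-square per degree of freedom of 6.86 to 13.9. The labels name neither a batch nor a date. Y-linked Ddx3y, an RNA helicase gene, lay at 34.9 to 41.2 CPM, and Xist, which silences 1 X chromosome in females, had 7 counts over all 6 libraries, which matches the male label.

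The mitochondrial genome and the contractile apparatus held the largest shares of counts among the lists. The 13 protein genes of the mitochondrial genome took 45.4 ± 1.23% of the counts (SD, n = 6). Control 1 to Control 6 had 45.6%, 45.1%, 46.1%, 46.1%, 46.2% and 43.0%, so Control 6 lay below the 5 others. Per length the same genes held 70.8 ± 1.21% of the TPM (a level scaled to a fixed total and divided by gene length, used below wherever genes are compared). The 31 genes of the sarcomere and its Z-disc held 8.58 ± 0.320% of the counts, with 9.18% in Control 6 and 8.28% to 8.65% in the others. Nuclear genes of the respiratory chain and ATP synthase held 3.27 ± 0.108% over 82 genes. Within that group, the ATP synthase, which makes ATP from the proton gradient, held 1.28 ± 0.0421%, complex I 0.859 ± 0.0304%, complex IV 0.525 ± 0.0230%, complex III 0.393 ± 0.0153% and complex II 0.212 ± 0.00893%.

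**Figure D1:**
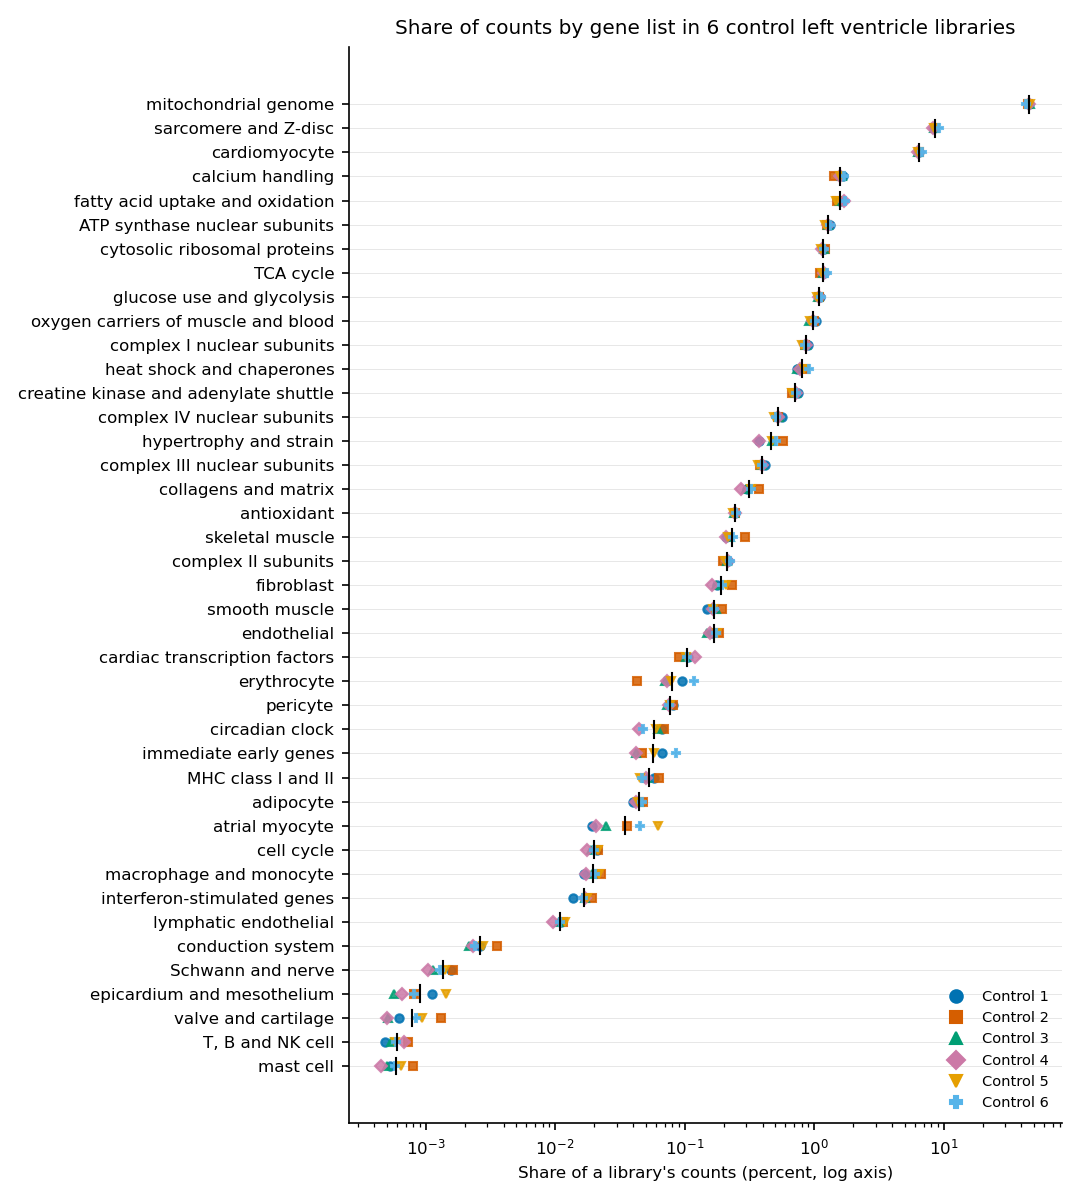
Share of counts (percent, log axis) of the gene lists in the control left ventricle, with a vertical tick at the mean and 1 marker per library. The sex-linked, neutrophil, lung and liver lists are not drawn. The mitochondrial genome at 45.4% stood over the sarcomere at 8.58%, and the atrial, erythrocyte and immediate early lists had the widest scatter of markers among the lists above 0.01%.

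Fuel pathways held similar shares. Uptake and oxidation of fatty acids, the main fuel of the adult heart, held 1.59 ± 0.105% of the counts over 26 genes, and the tricarboxylic acid cycle held 1.18 ± 0.0468% over 17. Glucose use and glycolysis held 1.09 ± 0.0310% over 21 genes. Calcium handling, which couples excitation to contraction, held 1.60 ± 0.0929%, and 18 of its 21 matched genes averaged at least 1 CPM. The creatine kinase and adenylate shuttle, which carries high-energy phosphate from mitochondria to the myofibrils, held 0.713 ± 0.0279%. Cytosolic ribosomal proteins held 1.18 ± 0.0313% over 82 genes, chaperones 0.812 ± 0.0723% and collagens with other matrix genes 0.315 ± 0.0343%.

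Few genes of other kinds than protein coding took a sizeable share. Protein-coding genes of nucleus and mitochondria together held 99.7% of the counts, lincRNAs 0.173%, antisense genes 0.0603% and pseudogenes 0.0430%. All 37 genes of the mitochondrial genome held 45.4%, the same as its 13 protein genes alone. The RNA was selected for poly(A), and the part of that selection or of the counting in these shares was not tested. Chromosome 14 held 4.58% of the counts, of which the single gene Myh6 made up 61.7%. Chromosome 2 held 4.61%, with Actc1 in front at 18.4% of it. A total of 10 genes above 10000 CPM held 47.0 ± 0.991% of the counts, the 43 genes from 1000 to 10000 CPM held 12.5%, the 784 genes from 100 to 1000 CPM held 19.5%, and the 6119 genes from 10 to 100 CPM held 18.6%. Outside the mitochondrial genome, 353 to 383 genes were enough to hold 50% of the counts of a library.

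Among mitochondrially encoded genes, the 3 catalytic subunits of cytochrome c oxidase led. The highest level was that of mt-Co1 (MT:5328-6872), whose TPM was 146006, 143522, 139079, 138086, 144156 and 147468 in Control 1 to Control 6. Its mean of 143053 ± 3745 stood above mt-Co2 at 125103 ± 4593 and mt-Co3 at 87034 ± 2792. The ranges of these 3 genes did not overlap. Control 6 was low for mt-Co2, at 49481 CPM against 56577 to 58313 in the others. For mt-Co1, Control 6 had the highest TPM, yet 0 of the 13 genes lay above their mean log2 CPM in that library. TPM and CPM thus order the libraries differently for mt-Co1. Cytochrome b of complex III, mt-Cytb, averaged 55292 TPM, and the complex I subunits ran from 56052 for mt-Nd1 to 699 ± 109 for mt-Nd6, the only one of the 13 encoded on the other strand. Several of these genes overlap (mt-Atp8 with mt-Atp6, mt-Nd4l with mt-Nd4, mt-Nd6 with mt-Nd5), and no treatment of strand is given in the sources used here, so reads of the overlapping members cannot be fully told apart.

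The highest nuclear genes were those of oxygen storage, contraction and energy supply. Mb (chr15:77015489-77050670) encodes myoglobin, the oxygen store of muscle, and led with a TPM of 11282, 11599, 10086, 10735, 10129 and 11382 in Control 1 to Control 6. It was followed by the cardiac actin gene Actc1 at 8009 ± 1008, by Myh6, the α-myosin heavy chain, at 6788 ± 508, and by Myl2, the ventricular regulatory light chain, at 5801 ± 285. Fabp3, the fatty acid carrier of heart muscle, reached 5092 ± 370. The 3 troponin genes lay close together, with Tnnc1 at 3115 ± 217, Tnni3 at 2910 ± 145 and Tnnt2 at 2643 ± 91.3. The order of Tnni3, Tnnt2 and the essential light chain gene Myl3 at 2648 ± 172 was not separated by their spread.

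Energy and calcium genes made up most of the remainder of the 20 highest nuclear genes. Cox6a2, the muscle form of a cytochrome oxidase subunit, averaged 2145 ± 92.4 TPM, Slc25a4, which exchanges ADP for ATP across the inner mitochondrial membrane, 1996 ± 105, and Ckmt2, the mitochondrial creatine kinase, 1573 ± 115. Pln, the brake on the calcium pump, stood at 2041 ± 139 and the pump itself, Atp2a2, at 1924 ± 158. Atp2a2 was low in Control 2 alone, at 6542 CPM against 7684 to 8070 in the others. Tcap, encoding the Z-disc cap protein telethonin, had the widest relative spread of the 20, at 1466, 1856, 1371, 594, 1363 and 806 TPM in Control 1 to Control 6. Control 4 and Control 6 were the 2 low libraries for Tcap.

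**Figure D2:**
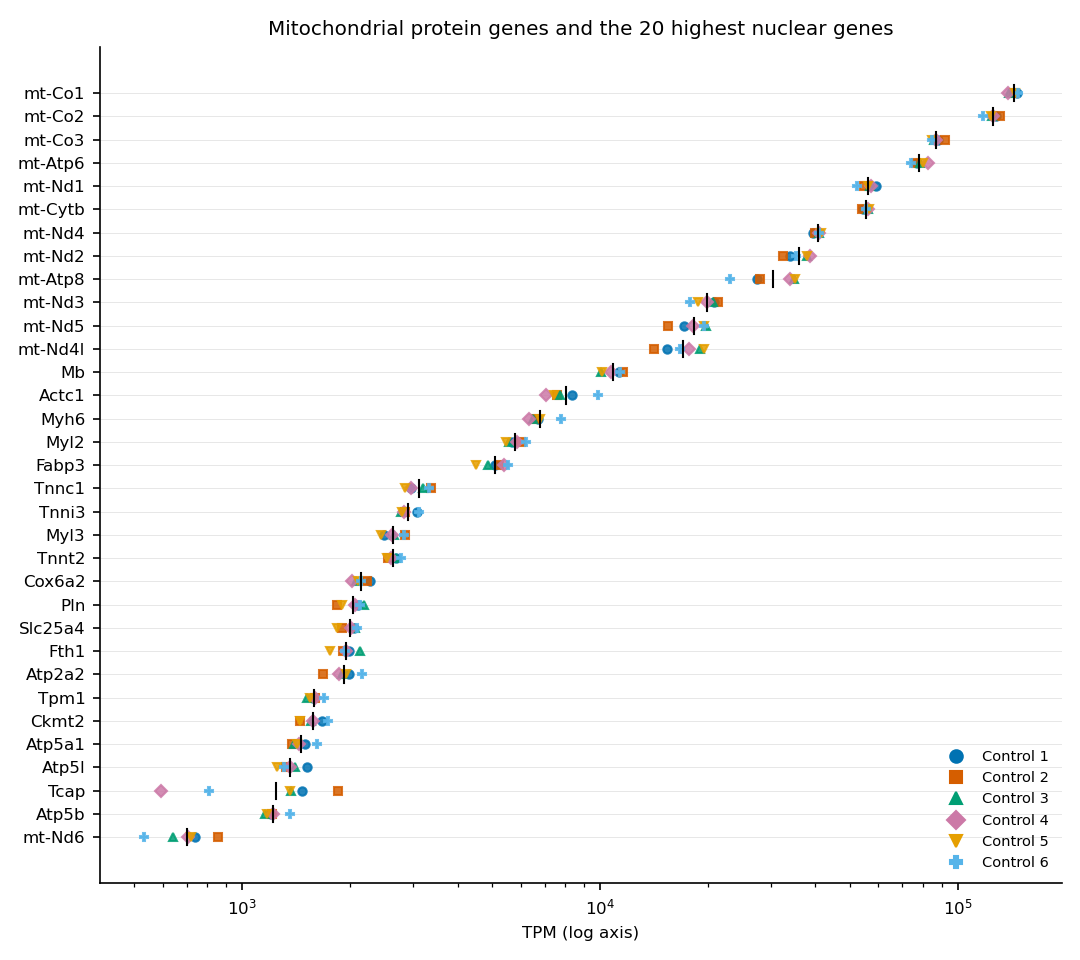
Level (TPM, log axis) of the 13 protein genes of the mitochondrial genome and of the 20 highest nuclear genes in the 6 control libraries, with 1 marker per library and a vertical tick at the mean. All mitochondrial genes but mt-Nd6 lay above the leading nuclear gene Mb, and Tcap had the widest scatter among the nuclear ones.

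Other lists had their own leading genes. Among chaperones, the small heat shock proteins Hspb7 at 1192 ± 149 TPM and Cryab at 1173 ± 57.9 led, above Hspb6 at 545 ± 76.5. Among dehydrogenases and related enzymes of the tricarboxylic acid cycle, Idh2 averaged 847 ± 43.4 and Mdh2 699 ± 51.1. Lipoprotein lipase, Lpl, which frees fatty acids from circulating lipoproteins, was at 684 ± 59.5, and the β-oxidation enzyme Acaa2 at 593 ± 63.1. The antioxidant enzymes Sod1 at 395 ± 19.5 and Gpx4 at 348 ± 24.7 led their list. Matrix genes were led by decorin, Dcn, at 342 ± 49.3.

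Markers of other cell types were present at shares far under those of cardiomyocyte markers. The 12 cardiomyocyte markers held 6.48 ± 0.182% of the counts, against 0.192 ± 0.0254% for 14 fibroblast markers, 0.168 ± 0.0132% for 14 endothelial markers, 0.169 ± 0.0146% for 8 smooth muscle markers, 0.0772 ± 0.00353% for 8 pericyte markers and 0.0197 ± 0.00238% for 16 macrophage markers. The smooth muscle list summed to 1693 CPM with a median member at 29.9 CPM, and the pericyte list to 772 CPM with 25.6 CPM. The higher members thus made up most of both shares, which do not measure the amount of a cell type. The smooth muscle list includes Des, and the pericyte list includes Kcnj8 and Abcc9. The part of cardiomyocytes in either share was not tested. In bulk tissue, fewer cells of a type and less RNA per cell cannot be told apart. Fabp4, an endothelial and adipocyte carrier of fatty acids, led the endothelial list at 622 ± 53.8 TPM, and the complement gene C1qa led the macrophage list at 41.8 ± 4.85. The ratio of Fabp3 to Fabp4 changed with the gene length used, as given below, so the TPM of Fabp4, of Fabp3 or of both depends on that length. Cidea, a lipid droplet gene of the adipocyte list, averaged 28.7 ± 3.01 TPM, while Adipoq, which defines adipocytes, ranged from 0 to 1.87 CPM. Markers at 0 counts in all 6 libraries were Ly6g, Mpo and Elane of neutrophils, Sftpc, Sftpa1, Sftpb and Scgb1a1 of lung, Myh4 and Myf6 of skeletal muscle, Ucp1 of brown fat and Matn1 of cartilage. A count of 0 allows a level of up to 3 counts of the total, which is 0.132 to 0.176 CPM (on unscaled totals) over the 6 libraries, counting error only.

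Most isoform families had 1 leading member. For 48 families of related genes, the ratio of a fixed pair was formed in each library from TPM. The families were chosen with earlier results of these data known. An exact 2-sided sign-flip permutation test was made for the 45 pairs whose rarer member had enough counts. In 42 pairs the ratio differed from 1 with the same direction in 6 of 6 libraries (exact permutation p = 0.03125, the smallest that 6 libraries can give, Benjamini-Hochberg adjusted p = 0.0335). The ratios depend on the gene length used. With the union of exons or the longest transcript of GENCODE M21 as the length, 20 of the 45 pairs moved by over 1.5 times under at least 1 of them, and the moved values are given with the ratios named. The share of one member in its family reached 99.8% for Tnnt2, 99.8% for Atp2a2, 98.8 ± 0.360% for Myh6 and 98.7% for Mybpc3.

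**Figure D3:**
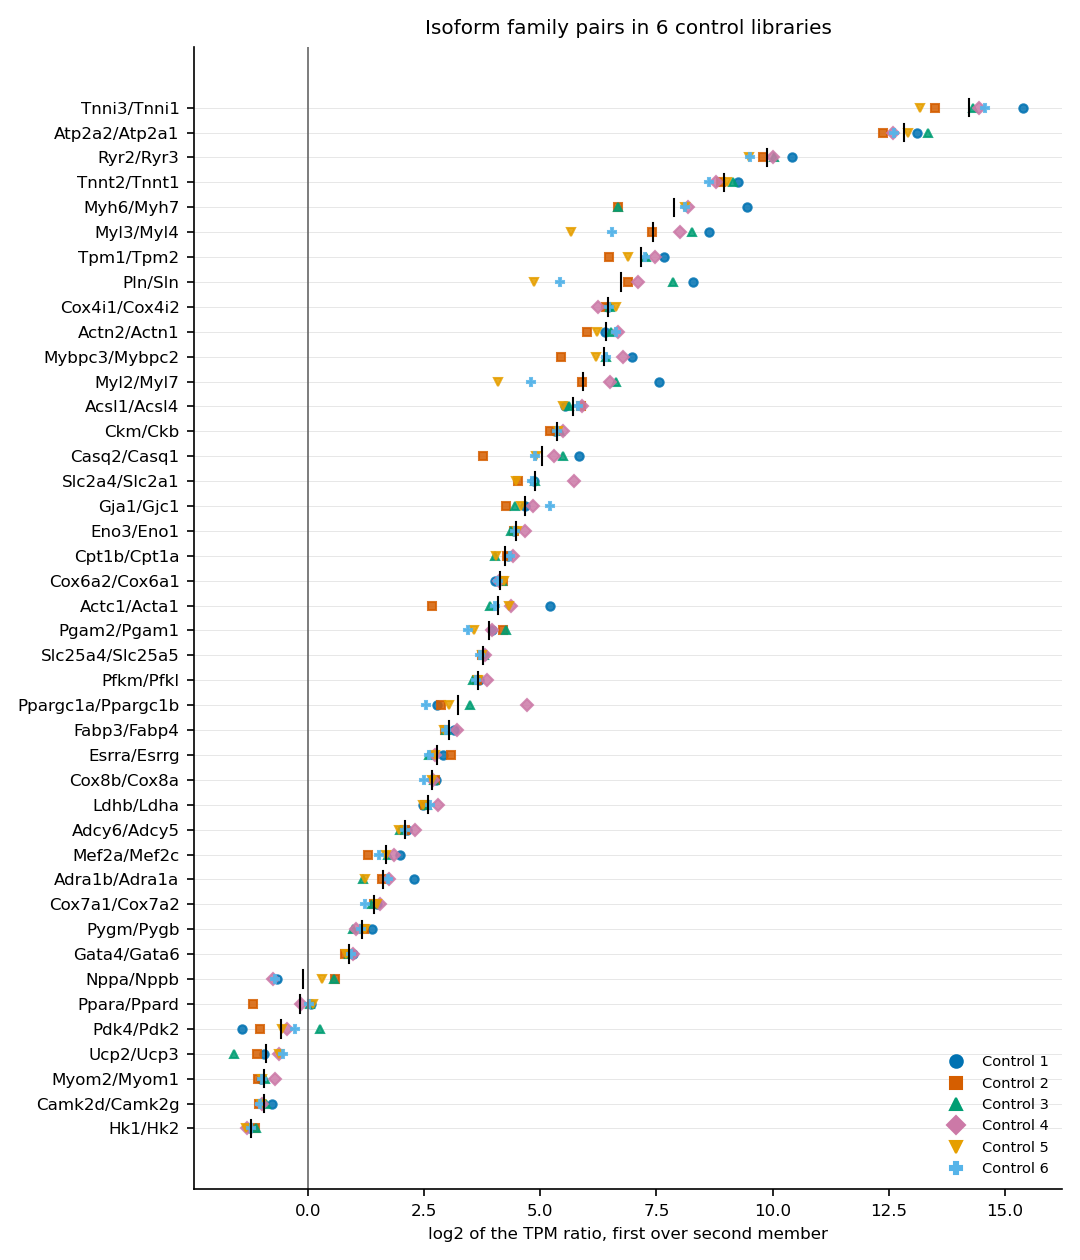
Ratio of the 2 members of family pairs, not every tested pair being drawn (log2 of the TPM ratio, 1 marker per control library, vertical tick at the mean). Markers right of 0 show a higher first member, and the ratios of Myh6 to Myh7, Myl2 to Myl7 and Pln to Sln scatter over several log2 units while the ratio of Slc25a4 to Slc25a5 stays within 13.1 to 14.1 on the linear scale.

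The contractile families combined one-sided ratios with wide scatter between libraries. Myh6 (chr14:54941981-54966927, minus strand) and the neighbouring β-myosin gene Myh7 (chr14:54970688-54994634, minus strand) lie in tandem, and β-myosin is the slower isoform, known for its use in the fetal mouse ventricle. The Myh7 level was 9.66, 64.3, 63.6, 21.7, 24.6 and 28.1 TPM in Control 1 to Control 6. Control 2 and Control 3 were high and Control 1 was low. The ratio of Myh6 to Myh7 ran from 102 in Control 2 to 694 in Control 1, with a mean ratio of 234. The antisense gene Mhrt overlaps Myh7, so part of the Myh7 counts is uncertain. Another member, Myh7b, took 0.474 ± 0.0383% of the family, similar to Myh7 at 0.519 ± 0.350%.

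Cardiac and skeletal α-actin show the same picture in a family whose coding sequences are nearly identical. Actc1 (chr2:114047282-114053548, minus strand) held 93.8 ± 3.78% of the sarcomeric actin TPM, and Acta1 (chr8:123891769-123894751, minus strand), the skeletal form that is also used in fetal and loaded hearts, held the remainder. The Acta1 level was 226, 1188, 511, 342, 371 and 603 TPM in Control 1 to Control 6. Control 2 stood highest and Control 1 lowest. The ratio of Actc1 to Acta1 was 37.0 in Control 1 and 6.38 in Control 2. Reads of such close copies can be shared out by the counting, which adds uncertainty to both.

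The 2 actin promoters are printed because the family pair differs so much in level while both hold the same type of serum response element. Sequences are those of RefSeq for GRCm38.p6, from 250 bases before to 50 bases after the listed start, read on the gene's strand. The 4 runs of capitals mark a CArG box, the binding motif of serum response factor, and the letters TATAAA in each promoter.
Actc1 (chr2:114052826-114053125, minus strand): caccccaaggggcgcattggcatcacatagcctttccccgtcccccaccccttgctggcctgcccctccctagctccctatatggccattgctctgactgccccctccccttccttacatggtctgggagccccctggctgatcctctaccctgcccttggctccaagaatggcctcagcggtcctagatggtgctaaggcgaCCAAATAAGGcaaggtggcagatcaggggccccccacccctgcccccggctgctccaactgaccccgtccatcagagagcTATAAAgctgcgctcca
Acta1 (chr8:123894726-123895025, minus strand): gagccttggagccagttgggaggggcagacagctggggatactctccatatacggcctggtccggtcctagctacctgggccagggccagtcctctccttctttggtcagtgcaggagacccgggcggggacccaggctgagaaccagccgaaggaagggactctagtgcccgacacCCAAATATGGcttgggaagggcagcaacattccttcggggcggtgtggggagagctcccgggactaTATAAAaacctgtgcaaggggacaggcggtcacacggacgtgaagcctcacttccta

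The CArG box began 47 bases before the listed start of Actc1 and 73 bases before that of Acta1. The TATAAA run began 33 bases after the listed start of Actc1 and 7 bases before that of Acta1. All these distances refer to the listed start, and whether it is the start in use was not tested. Of 32851 promoter entries of the same length, 1.63% held a CArG box, searched on both strands by name, and 8.32% held TATAAA on the gene's strand. A match of letters is a description and shows no binding.

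The light chains, troponins and other filament proteins followed the ventricular or cardiac form. Myl2 exceeded its atrial counterpart Myl7 by a mean ratio of 60.4, with 16.98 in Control 5 and 187 in Control 1, and the mean log2 ratio of 5.92 was 6.65 without Control 5 and Control 6. With the longest transcript as the length the mean ratio was 132. Myl3 exceeded the atrial and fetal chain Myl4 by 172, from 50.7 to 398. Cardiac Tnnt2 exceeded Tnnt1 of slow skeletal muscle by 497, or by 271 with the union of exons and 304 with the longest transcript. Tnni3 exceeded Tnni1 by 19143, although Tnni1 rested on 3 to 16 counts per library. Tpm1 exceeded Tpm2 by 144, or by 242 with the longest transcript. Mybpc3 exceeded the fast skeletal Mybpc2 by 83.0, and Actn2 of the Z-disc exceeded the non-muscle Actn1 by 85.1. The M-band genes were more even. Myom1 was 1.92 times as high as Myom2 in the deposited TPM, and only 1.04 times with the union of exons, 1.11 times with the longest transcript and 1.23 times in plain counts.

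Calcium handling was equally one-sided in its pump and channels. Atp2a2 exceeded the fast skeletal pump gene Atp2a1, which had 9 to 16 counts per library, by a mean ratio of 7219. The ryanodine receptor Ryr2, which releases calcium from the sarcoplasmic reticulum, exceeded Ryr3 by 938, or by 588 with the union of exons. Casq2, the calcium buffer of the cardiac store, exceeded Casq1 by 32.7, with 13.7 in Control 2 and 56.8 in Control 1. Pln exceeded the atrial pump regulator Sln by 107, from 29.2 to 312, and the mean log2 ratio of 6.74 was 7.54 without Control 5 and Control 6. With the union of exons the mean ratio of Pln to Sln was 246, and with the longest transcript 291.

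Receptor and signalling pairs had smaller ratios. The β1-adrenergic receptor gene Adrb1 was at 3.37 TPM, and the α1-adrenergic receptor gene Adra1b exceeded Adra1a by 3.10. That ratio was 1.65 with the longest transcript and 1.29 in plain counts. Adcy6, which makes cyclic AMP, exceeded Adcy5 by 4.29 and took 62.6 ± 1.98% of the adenylyl cyclase TPM. Gja1, the main connexin of ventricular gap junctions, exceeded Gjc1 by 25.5, but by 7.73 with the union of exons and 13.9 with the longest transcript. Camk2g was 1.93 times as high as Camk2d per length, but Camk2d had more counts, and the direction also turned with the longest transcript as the length.

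Most metabolic pairs favoured the heart and muscle form, and several of their ratios varied little between libraries. Slc25a4 exceeded Slc25a5 by 13.6, within 13.1 to 14.1 over the 6 libraries. Cox6a2 exceeded the liver form Cox6a1 by 17.6, within 16.4 to 18.6. Cox4i1 exceeded Cox4i2 by 87.8, or by 165 with the longest transcript. Cox7a1 exceeded Cox7a2 by 2.70, and Cox8b exceeded Cox8a by 6.41, lowest in Control 6 at 5.64. The cytosolic creatine kinase of muscle, Ckm, exceeded the brain form Ckb by 41.4, or by 81.1 with the union of exons and 84.5 with the longest transcript.

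In sugar and fat use, 1 gene again led most families. Ldhb, the lactate dehydrogenase form typical of heart, exceeded Ldha by 5.98, Pfkm exceeded Pfkl by 12.7, Eno3 exceeded Eno1 by 22.3 and Pgam2 exceeded Pgam1 by 15.0. With the longest transcript the ratio of Ldhb to Ldha was 3.95 and that of Eno3 to Eno1 9.36. The insulin-responsive glucose transporter gene Slc2a4 exceeded Slc2a1 by 29.5, with 52.8 in Control 4, where Slc2a1 was low. Cpt1b, which admits long-chain fatty acids to mitochondria, exceeded Cpt1a by 19.0, or by 33.7 with the union of exons. Acsl1 exceeded Acsl4 by 52.3, or by 85.2 with the longest transcript. Fabp3 exceeded Fabp4 by 8.20, but by 41.1 with the union of exons and 38.7 with the longest transcript. Among hexokinases, Hk2 took 56.3 ± 2.94% of the family and Hk1 24.2 ± 1.68%. Their ratio of 2.33 was 1.26 with the longest transcript. Ucp3 was 1.86 times as high as Ucp2 per length, and lower than it in plain counts.

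Regulators of metabolism and of the cardiac gene programme had moderate ratios. Gata4 exceeded Gata6 by 1.86, within 1.74 to 1.96 over the libraries, but by 3.79 with the union of exons and 2.53 with the longest transcript. Mef2a exceeded Mef2c by 3.21, although neither led the family, in which Mef2d held 58.9 ± 2.82%. Esrra exceeded Esrrg by 6.86, or by 3.97 with the union of exons. The coactivator gene Ppargc1a, a driver of mitochondrial biogenesis, exceeded Ppargc1b by 9.43, and the log2 ratio was 4.71 in Control 4 against 2.54 to 3.48 in the others. The Ppargc1a level was 71.8, 72.8, 149, 293, 127 and 88.7 CPM in Control 1 to Control 6, highest in Control 4.

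A clear order was missing in 3 pairs. The natriuretic peptide genes Nppa and Nppb, which encode hormones released on stretch, had a mean log2 ratio of -0.11 ± 0.65, with Nppa higher in 3 of 6 libraries (exact sign-flip permutation test, p = 0.719, adjusted p = 0.735). Pdk4 and Pdk2, kinases that shut down pyruvate dehydrogenase, had a mean log2 ratio of -0.57 ± 0.58, with Pdk4 higher in 1 of 6 (exact sign-flip permutation test, p = 0.0625, adjusted p = 0.0654). Ppara and Ppard, lipid-sensing receptors, had a mean log2 ratio of -0.17 ± 0.50 (exact sign-flip permutation test, p = 0.750), and Control 2 stood apart at -1.17 against -0.14 to 0.12 in the others. With the union of exons that mean was 0.53. Such p-values do not show equal levels. No test was made for Tnnc1 with Tnnc2, Aldoa with Aldoc, and Ckmt2 with Ckmt1, whose rarer member had 5, 4 and 13 counts in all 6 libraries together.

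Most genes varied little between control libraries. Over the 12049 genes of at least 1 CPM on average, the biological coefficient of variation (BCV, the spread beyond counting noise) was 11.9% as a common value and 10.5% as the median of single genes. It lay under 10% for 5269 genes, over 20% for 1013 and over 50% for 28. When each gene was estimated alone, it lay under 10% for 7359 genes and over 50% for 90. The median fell with level, from 13.8% at 1 to 10 CPM to 9.22% at 10 to 100 CPM and 8.33% at 100 to 1000 CPM. Single-gene values are drawn toward the common trend, which understates large spreads. On simulated data, the median of the genes given no large spread came back at 1.19 times the simulated median.

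**Figure D4:**
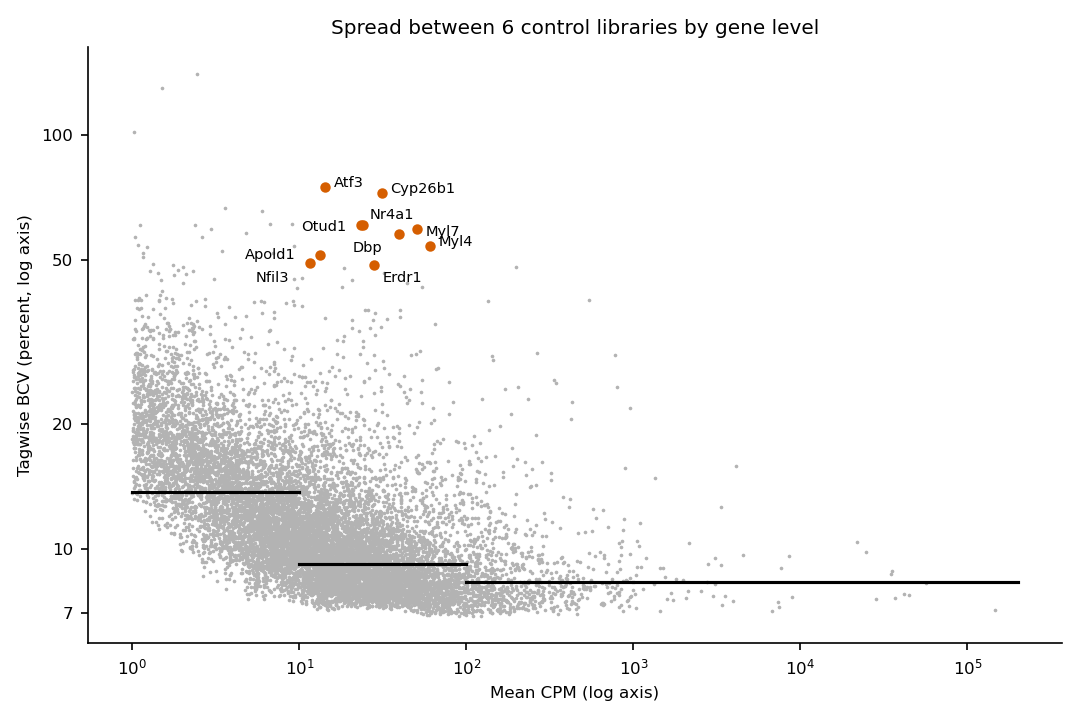
Biological coefficient of variation (percent, log axis) against mean level (CPM, log axis), with 1 grey point per gene of at least 1 CPM, black lines at the median of each level range and the 10 named genes of the highest spread in orange. The medians go from 13.8% in the lowest range to 9.22% in the next, and the named genes lie between 48.5% and 75.0%.

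The lowest spreads lay close together. Among genes of at least 10 CPM, the 10 lowest BCVs were those of Rac1, Dazap2, Glud1, Nek7, Rpl27-ps3, Ywhab, Rpl3l, Rpl4, Gpi1 and Psma2, from 6.88% to 6.97%, near the floor that the shared trend sets. Rpl3l is a ribosomal protein gene of heart and skeletal muscle. Rac1, a small GTPase of the cytoskeleton, had 111, 109, 110, 110, 109 and 108 CPM in Control 1 to Control 6. Psma2, a proteasome subunit, kept within 54.2 to 56.3 CPM. The pseudogene Rpl27-ps3 shares sequence with Rpl27, so its counts are uncertain. By list, the median BCV was 7.56% for ribosomal proteins, 8.11% for complex I, 8.16% for the tricarboxylic acid cycle and 8.37% for the sarcomere, against 10.5% over all genes tested. The members of these lists had medians of 133 to 865 CPM, and the median over all genes at 100 to 1000 CPM was 8.33%, so the lists lay near that of their level.

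High spread was found in lists of induced, rhythmic, atrial and blood genes, among others. Immediate early genes, transcribed within minutes of a stimulus, had a median BCV of 22.9%, with 17 of 21 members over 20%, against 8.41% of all genes tested. Circadian clock genes, whose transcription cycles daily, had a median of 25.5%, with 12 of 19 over 20%. The hypertrophy and strain list had 25.9% and 9 of 14, the atrial marker list 35.9% and 5 of 8, and the erythrocyte list 25.2% and 5 of 5. Over all genes in the level ranges of these members, the median was 8.33% to 9.22%. The 10 highest BCVs at 10 CPM or more were those of Atf3 (75.0%), Cyp26b1 (72.3%), Nr4a1 (60.6%), Otud1 (60.6%), Myl7 (59.2%), Dbp (57.8%), Myl4 (54.0%), Apold1 (51.3%), Nfil3 (49.0%) and Erdr1 (48.5%). Several of these values hinge on 1 library: without Control 1 that of Nr4a1 was 39.9%, of Apold1 32.2% and of Erdr1 36.7%, and without Control 6 that of Otud1 was 36.4%. Leaving out 1 library brought that of Nfil3 down to 34.9% and that of Atf3 to 53.4% at the lowest. Without both Control 5 and Control 6, that of Myl7 was 29.4% and that of Myl4 25.6%.

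Clock genes were set apart in the same 2 libraries. The clock runs on a loop in which ARNTL and CLOCK activate the Per and Cry repressors and the Nr1d1 and Dbp output genes through E-boxes, while NR1D1 and ROR proteins act on Arntl. Dbp had 61.0, 66.0, 50.2, 8.88, 41.7 and 8.35 CPM in Control 1 to Control 6. Nr1d1, which represses Arntl, had 73.7, 52.3, 63.98, 23.5, 40.3 and 12.1 CPM. Ciart, a repressor of the loop, had 15.3, 7.91, 8.77, 2.65, 4.92 and 1.89 CPM. In all 3 genes Control 4 and Control 6 were the 2 lowest libraries and did not overlap the others.

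The opposite arm of the loop was high where these were low. Arntl had 4.28, 1.18, 2.48, 15.7, 2.23 and 10.01 CPM in Control 1 to Control 6, and Nfil3, a repressor of the same output sites, had 5.26, 6.30, 5.05, 16.5, 9.15 and 27.1 CPM. Control 4 and Control 6 were the highest libraries for both. Over the list, these 2 libraries were the 2 lowest for 10 of 19 clock genes (Tef, Nr1d1, Dbp, Nr1d2, Bhlhe40, Per2, Ciart, Per3, Hlf and Bhlhe41), against 7.93% of all genes tested. They were the 2 highest for 6, among them Nfil3, Cry1, Clock, Arntl and Npas2, against 8.54% of all genes tested. The pair of libraries was picked after these values were seen, so the counts are a description. Dbp overlaps Sphk2, Nr1d1 overlaps Thra and Per3 overlaps Camta1, which leaves some of their counts uncertain.

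The promoters of Ciart and Arntl are printed as one gene from each arm whose window holds a match. The capitals mark the E-box CACGTG in Ciart and TAGGTCA, the core of the element that ROR and NR1D1 proteins bind, in Arntl, both from RefSeq for GRCm38.p6 on the gene's strand.
Ciart (chr3:95882179-95882478, minus strand): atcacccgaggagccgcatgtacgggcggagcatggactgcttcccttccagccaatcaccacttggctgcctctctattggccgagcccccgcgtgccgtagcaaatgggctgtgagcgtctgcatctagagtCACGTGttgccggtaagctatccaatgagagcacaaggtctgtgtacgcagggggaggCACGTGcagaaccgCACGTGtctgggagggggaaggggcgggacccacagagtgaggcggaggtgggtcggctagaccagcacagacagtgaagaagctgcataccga
Arntl (chr7:113207261-113207560, plus strand): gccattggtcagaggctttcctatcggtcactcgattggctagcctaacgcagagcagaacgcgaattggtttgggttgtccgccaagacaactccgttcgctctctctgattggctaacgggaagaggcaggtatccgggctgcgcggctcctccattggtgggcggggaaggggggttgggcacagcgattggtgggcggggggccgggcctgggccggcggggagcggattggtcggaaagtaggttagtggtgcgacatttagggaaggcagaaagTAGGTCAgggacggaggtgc

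The Ciart window held 3 E-boxes, at 116, 58 and 44 bases before the listed start, and the Arntl window held its match 30 bases after the start. Of the 19 clock genes, 16 had a promoter entry, searched on both strands. CACGTG was found in 5 of them (Per1, Cry1, Tef, Ciart and Bhlhe41) and TAGGTCA in 2, Arntl and Nfil3. Dbp, Nr1d1, Nr1d2, Per3 and Hlf, low in Control 4 and Control 6, had an entry without CACGTG. Cry1, high in Control 4 and Control 6, had a match. Over 32851 promoter entries the shares were 7.15% for CACGTG and 2.61% for TAGGTCA. The absence of a match says only that these letters are not in the window.

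Most immediate early genes were highest in Control 1 and Control 6. Atf3, a stress-induced transcription factor, had 17.6, 3.41, 2.33, 5.16, 11.0 and 46.1 CPM in Control 1 to Control 6. Nr4a1, an orphan nuclear receptor induced by many stimuli, had 66.7, 9.05, 10.6, 11.9, 9.24 and 33.7 CPM. Btg2, which slows proliferation, had 46.3, 26.3, 23.6, 21.5, 40.2 and 83.4 CPM. Control 1 and Control 6 were the 2 highest libraries for 14 of 21 members, against 6.69% of all genes tested. That pair of libraries was picked after the values were seen. The summed level of the list was 678, 456, 431, 427, 590 and 842 CPM in Control 1 to Control 6. Control 6 was also highest for Fos, at 12.6 CPM against 4.26 to 6.71, and for the heat shock gene Hspa1a, at 10.5 CPM against 2.14 to 6.96.

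Erythrocyte genes were highest in the same 2 libraries. The β-globin gene Hbb-bs had 422, 178, 300, 319, 341 and 506 CPM in Control 1 to Control 6, and the α-globin gene Hba-a1 had 203, 94.2, 147, 158, 160 and 257 CPM. Control 1 and Control 6 were the 2 highest for 5 of 5 erythrocyte genes tested, against 6.69% of all genes tested, in a pair of libraries picked after the values were seen. The summed level of the 8 markers ran from 420 CPM in Control 2 to 1162 CPM in Control 6. The part of blood in the levels of other genes was not tested. Near-identical globin copies (Hba-a1 with Hba-a2, Hbb-bs with Hbb-bt) may share reads.

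Atrial genes were highest in Control 5 and Control 6. Myl7 had 11.9, 37.9, 22.4, 25.8, 127 and 80.4 CPM in Control 1 to Control 6, Myl4 had 19.3, 49.6, 27.0, 31.98, 149 and 86.9 CPM, and Sln had 2.31, 5.12, 3.29, 5.25, 22.4 and 15.7 CPM. In all 3 genes Control 5 was highest, Control 6 next, and neither overlapped the others. These 2 libraries, a pair picked after the values were seen, were the 2 highest for 5 of 8 atrial markers tested (also Nppa and Stard10). The share over all genes tested was 6.99%. Kcnj3, an atrial potassium channel gene, did not follow, at 36.2 to 46.8 CPM. Bmp10, which defines right atrial myocytes, had at most 0.0474 CPM. The summed level of the 10 markers was 195, 348, 250, 211, 632 and 442 CPM, and its part in other results was not tested.

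**Figure D5:**
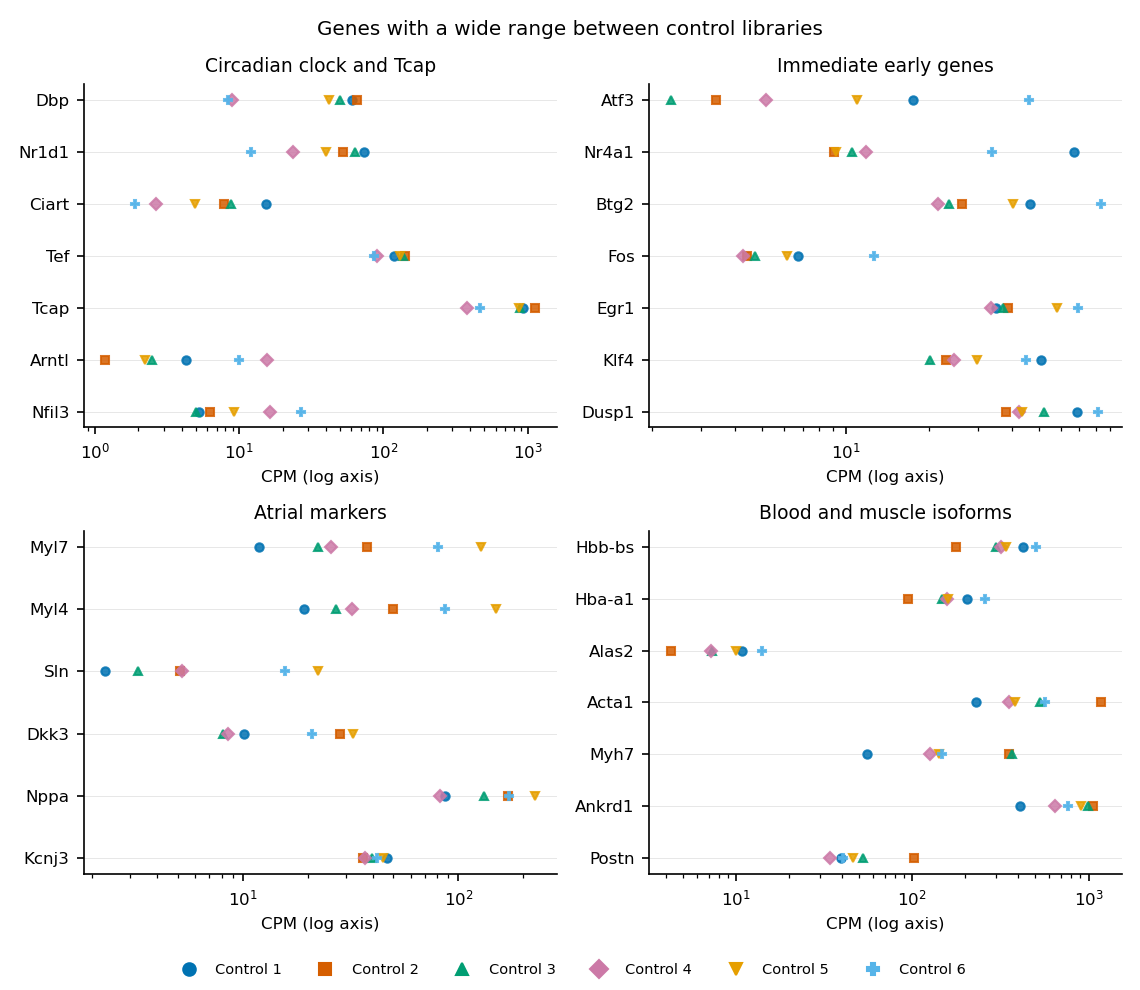
Level (CPM, log axis) of genes with a wide range between libraries, 1 marker shape per control library, in panels for clock genes with Tcap, immediate early genes, atrial markers, and blood genes with muscle isoforms. Control 4 and Control 6 sit at the low end for Dbp, Nr1d1, Ciart, Tef and Tcap and at the high end for Arntl and Nfil3, while Control 5 and Control 6 sit at the high end for Myl7, Myl4 and Sln.

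Strain genes were highest in Control 2 or Control 3 for some members and elsewhere for others. Acta1 had 1169 CPM in Control 2 against 231 to 570 in the others, and Myh7 had 354 and 370 CPM in Control 2 and Control 3 against 55.2 to 148. Ankrd1, a titin-associated stress sensor, had 407, 1059, 988, 644, 905 and 769 CPM in Control 1 to Control 6. Nppb, in contrast, was highest in Control 6 at 252 CPM, against 80.7 to 167. Postn, a matrix gene of activated fibroblasts, had 103 CPM in Control 2 against 34.3 to 52.7. Control 1 was lowest for Acta1, Myh7 and Ankrd1.

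Metabolic genes moved by small amounts but often in the same libraries. Control 4 and Control 6 were the 2 highest for 15 of 26 fatty acid genes, against 8.54% of all genes tested, and Control 2 and Control 5 were the 2 lowest for 17 of 26, against 9.18%. The summed level of that list ran only from 14510 to 17458 CPM. Control 5 and Control 6 were the 2 lowest for 20 of 37 nuclear complex I genes, against 8.10% in all genes tested, with sums of 8174 to 9117 CPM. Members of a list share these libraries and are not replicates, and the pairs of libraries were picked after the values were seen.

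For single genes, 1 library stood apart about as often as chance gives. The gap to the nearest other library, divided by the range of the log2 CPM, exceeded Dixon's critical value in 621 of 12049 genes (5.15%), and chance alone gives about 1 in 20. The library apart was Control 1 for 178 genes and Control 5 for 58, the other 4 lying between. With a distance of at least 2-fold to the mean of the others, 42 genes remained (0.349%). Control 1 had the most of them, 5 high and 12 low, and Control 3 had 4 high and 3 low. The examples that follow were all high in their library. Control 3 was high for the glucocorticoid-induced Fkbp5, at 44.1 CPM against 13.5 to 20.6, for Hif3a, at 3.53 against 0.86 to 1.30, for the acute-phase gene Lcn2, at 9.86 against 1.49 to 2.83, and for Serpina3n, at 27.3 against 9.31 to 13.7. Control 2 was high for the matrix gene Thbs4, at 24.2 CPM against 5.16 to 7.24, and Control 1 for the endothelin receptor gene Ednrb, at 22.0 against 10.1 to 11.5. These genes, and single members of the clock, early, atrial, chaperone and matrix lists, were picked for mention after their values were seen.

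Of 12 gene pairs, chosen with earlier results of these data known, 3 varied together past the threshold over the 6 libraries. Log2 CPM of Myl7 and Myl4 correlated with Pearson's r = 0.993 and Spearman's rho = 1 (exact permutation p = 0.00139 and 0.00278, adjusted 0.00833 and 0.0167), and r was 0.993 without the 2 libraries farthest from the median, Control 1 and Control 5. Myl7 and Sln had r = 0.981 and rho = 0.943 (exact permutation p = 0.00278 and 0.0167, adjusted 0.0111 and 0.0667), with r = 0.957 without the same libraries. Hba-a1 and Hbb-bs had r = 0.994 and rho = 1 (exact permutation p = 0.00139 and 0.00278, adjusted 0.00833 and 0.0167), with r = 0.987 without Control 2 and Control 6. The Spearman value of Myl7 and Sln missed the threshold after adjustment.

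The other 9 pairs did not pass after adjustment. Arntl and Dbp had r = -0.895 and rho = -0.714 (exact permutation p = 0.0333 and 0.136, adjusted 0.0900 and 0.272), and r was -0.16 without Control 4 and Control 6, so the relation rests on those libraries. Acta1 and Myh7 had r = 0.847 and rho = 0.8286 (exact permutation p = 0.0556 and 0.0583, adjusted 0.0952 and 0.175), with r = 0.563 without Control 1 and Control 2. Adipoq and Cfd, both of fat, had r = 0.932 and rho = 0.543 (exact permutation p = 0.0375 and 0.297, adjusted 0.0900 and 0.427), falling to r = -0.10 without Control 1 and Control 5. Fos and Egr1 had r = 0.798 and rho = 0.60 (exact permutation p = 0.0528 and 0.242, adjusted 0.0952 and 0.414). That r was 0.42 without Control 6 and 0.26 without Control 4 and Control 6, so it rests on those libraries. Nppa and Nppb had r = 0.367 (adjusted exact permutation p = 0.501). Within Col1a1 and Col3a1, Pecam1 and Cdh5, Nppa and Myh7, and C1qa and Cd68, r ran from 0.371 to 0.700 (adjusted exact permutation p from 0.183 to 0.501). Leaving out 1 library gave 0.61 to 0.85 for Col1a1 and Col3a1, 0.13 to 0.83 for Pecam1 and Cdh5, 0.10 to 0.67 for Nppa and Myh7, and 0.23 to 0.82 for C1qa and Cd68. Without Control 1 and Control 4, the r of Nppa and Myh7 was -0.76.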

How the data were processed

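Left ventricular RNA, isolated with the RNeasy Lipid Tissue kit and selected for poly(A), was read in pairs of 150 bases on an Illumina NovaSeq, per the labels' protocols. Trimming in CLC Genomics Workbench 21.0.3 used a quality limit of 0.05 and allowed 2 ambiguous bases, per the labels' protocols. EdgeR appears in the submitters' processing notes with no stated use. Build, annotation, mapping and strand were not given in the sources used here. Gene positions in the table start and end as in GENCODE M21 (GRCm38) for 87.8% of 48709 genes.

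Total counts per gene and library were used as deposited by the authors. TPM, also deposited by the authors, served to compare genes per length, and the gene length behind it was within 1% of the M21 union of exons for 68.5% of 7592 genes compared. Columns of per-sample values with no matching library numbered 0. Columns were matched by the number in the description field, since titles carry another number. Totals of 17079823 to 22688664 counts limit precision mainly below 1 CPM, and PCR reads are not independent molecules, so limits cover counting error only.

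From the counts, CPM with TMM factors of 0.983 to 1.03, log2 CPM (prior count 2) and BCV (estimateDisp without covariates, genes of at least 1 CPM on average) came from edgeR 4.0.16 in R 4.3.3. Pair ratios took the exact sign-flip permutation test if the rarer member averaged at least 0.1 CPM with a count in every library. Correlations took all 720 pairings. Tests were adjusted by Benjamini-Hochberg over 45 pairs and 12 relations at 0.05. The 45 lists, 48 families and 12 relations were chosen with earlier results of these data known. Named genes were the 20 highest nuclear genes, the 13 mitochondrial ones, the 10 highest and lowest BCVs from 10 CPM, pair members and those of at least 5% of a family, the 4 highest of each list, markers at 0 and the genes of the relations. Some genes that this rule names are not reported here. Itgam was matched under its suffixed name in the table after the files were read.

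The spread and gap computations were tested on simulated data, which showed that shrunken single-gene BCVs understate large spreads. For the genes given no large spread, the median came back at 1.19 times the simulated one with shrinkage and 0.910 times without. Alternatives were other scalings, filters, lengths, dispersion estimators (DESeq2 1.42.0) and leaving out libraries. Promoters were read from RefSeq tables for GRCm38.p6.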

Additional observations from a re-analysis of the deposited data

Results flagged for a closer look

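In 6 libraries, 1 library was taken as standing apart where its gap to the nearest other library, divided by the range, exceeded Dixon's critical value, which chance gives in about 1 in 20 groups. Of 45 list shares 3 passed, of 45 pair ratios 3, and of 161 genes named in the text 11, beside 6 genes that were picked for it. No explanation was tested.

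The share of the mitochondrial genome was low in Control 6 (gap over range 0.667), with mt-Co2 (0.816) and mt-Co3 (0.683) low there as well. The summed share of cardiomyocyte markers was high in Control 6 at 6.83% of counts (0.657), in the library of the lowest mitochondrial share. The median log2 deviation of the 12 single markers from their mean was 0.018 there, against 0.055 in Control 1 and 0.045 in Control 4. In Control 6, the M-band gene Myom1 reached 1124 CPM against 974 to 1021 (0.667). The ratio of Cox8b to Cox8a was low in Control 6 (0.657).

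The summed share of skeletal muscle markers was high in Control 2 at 0.294% of counts (0.654). Acta1, one of them, had 1169 CPM there against 231 to 570, and 2 of the 4 markers tested lay above their mean over the libraries. The same library was low for Atp2a2 (0.766), for Ryr2 at 678 CPM against 868 to 980 (0.670), for Ppara at 6.63 CPM against 14.5 to 18.6 (0.758) and for the ratio of Ppara to Ppard (0.799). It was high for Thbs4 (0.782).

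Control 1 was high for Cox6a1 at 64.7 CPM against 53.4 to 56.01 (0.754) and for Ednrb (0.834), and low for Cryab at 847 CPM against 908 to 945 (0.638). Control 3 was high for Col3a1 at 130 CPM against 78.0 to 94.2 (0.630), Lcn2 (0.665), Hif3a (0.718), Serpina3n (0.639) and Fkbp5 (0.641). Control 4 was low for Slc2a1 at 5.61 CPM (0.705) and high for the ratio of Slc2a4 to Slc2a1 (0.663). Control 5 was low for Cidea at 17.8 CPM against 21.6 to 24.1 (0.643).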

How the results depend on the processing

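No paired analysis was possible because 1 group is described and its replicate numbers give the order of deposit only. Gene length turned the direction of pairs, among them Camk2d to Camk2g and Ucp2 to Ucp3. With counts not divided by length, the mean log2 ratio was 1.28 for Camk2d to Camk2g and 0.26 for Ucp2 to Ucp3. With the longest transcript of GENCODE M21 it was 0.70 for Camk2d to Camk2g. Of 45 pairs, the ratio moved by over 1.5 times in 11 with the union of exons, 15 with the longest transcript and 23 in plain counts. In plain counts it was 75.6 for Myl3 to Myl4, 10970 for Tnni3 to Tnni1, 12625 for Atp2a2 to Atp2a1, 4.23 for Cox8b to Cox8a, 6.88 for Pgam2 to Pgam1 and 15.6 for Ppargc1a to Ppargc1b. The number of pairs past the threshold was 42 with the deposited TPM, 40 of 45 without length, 41 with the union of exons, 43 with the longest transcript and 39 of 42 with a minimum of 1 CPM. With 5 libraries the exact sign-flip permutation test cannot go below p = 0.0625, so calls were not counted there, and 42 to 43 pairs kept 1 direction. Ratios within a library do not depend on the scaling of library sizes.

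As shares outside the mitochondrial genome, the sarcomere held 15.7% and the nuclear respiratory chain with ATP synthase 5.98%. A count in any library was found for 18746 genes, against 12049 at 1 CPM or more. The common BCV was 10.8% with a filter of 10 CPM. The median BCV was 11.3% without Control 5 and Control 6, 8.77% with a filter of 10 CPM, 7.95% with DESeq2 gene-wise values and 8.02% with edgeR without shrinkage, which was added after simulated data were seen. Genes over 50% BCV numbered 18 without Control 5 and Control 6, 17 with filterByExpr, 12 with 10 CPM, 91 with DESeq2 gene-wise, 59 with DESeq2 maximum a posteriori and 90 without shrinkage. Leaving out each library in turn gave 11.4% to 12.4% for the common BCV, 10.3% to 11.1% for the median and 19 to 29 genes over 50%. In the last count, 19 came without Control 1. The mitochondrial share then ran from 45.2% to 45.8%, and 4.81% to 5.36% of genes had 1 library apart. Of the 10 highest BCVs, 7 to 9 were shared when 1 library was left out. The 3 correlations past the threshold numbered 3 under each scaling and without the log. With 5 libraries or 4, correlations were computed without a p. Depth limits the rare isoforms named with under 20 counts per library.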
